A study of Danio rerio with 10 samples.

Results

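Peroxiredoxins, superoxide dismutases and catalase are the enzymes that remove superoxide and hydrogen peroxide from the cell. The genes described here are the peroxiredoxin genes prdx1 to prdx5, the superoxide dismutase genes sod1 and sod2 and the catalase gene cat. They were chosen as the probe sets that the array's annotation ties to exactly 1 of these symbols, which gave 8 genes on 10 probe sets, of 8793 genes with a probe set of their own and 15617 probe sets in all. Every member passed the filter on low intensity. The gene prdx1 had 3 probe sets and each other gene had 1.

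The arrays held RNA from the hearts of zebrafish kept in hypoxia (5 arrays) or in normoxia (5 arrays), labelled with biotin and hybridized to Affymetrix Zebrafish GeneChips. In each group arrays 1 to 4 are labelled as biological samples, and array 5 as a technical repeat of sample 2. How low the oxygen was, how long exposure lasted, how many hearts went into a sample, and the fish's strain, sex and age were not stated in the labels. The labels do not say whether samples came from separate fish, so p-values measure the spread between these samples, which may be technical.

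Superoxide is formed mainly where electrons leak from the mitochondrial respiratory chain. Superoxide dismutases turn it into hydrogen peroxide, sod2 in the mitochondrial matrix and sod1 in the cytosol, and catalase (in peroxisomes) and peroxiredoxins break the peroxide down. Peroxiredoxins use a cysteine that thioredoxin then restores, and in mammals prdx1 and prdx2 work in the cytosol, prdx3 in mitochondria, prdx5 in mitochondria and also in peroxisomes and the cytosol, and prdx4 in the endoplasmic reticulum (ER). The compartments used below are those known from mammals.

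Median intensity per array was 36.2 to 51.6, and the number of arrays limits the precision. Hypoxia 1 and 4 differed by an SD of 0.112 log2 over 2247 bright probe sets and normoxia 3 and 4 by 0.0927, in or below the range of the technical pairs (0.105 and 0.151). The other 16 pairs within a group ranged from 0.268 to 0.635. Both alike pairs were therefore averaged into a single sample each. The 3 samples compared were hypoxia 1/4, hypoxia 2 and hypoxia 3, against normoxia 1, normoxia 2 and normoxia 3/4. The heart genes myl7, cmlc1 and tnnt2a were among the brightest 0.2% of probe sets (percentiles 99.9, 99.9 and 99.8), and vmhc, tnni1b and nppa had no probe set with that symbol alone. Hypoxia was compared with normoxia in limma, and a gene was called at an adjusted p under 0.05 over 10851 probe sets. Differences are hypoxia minus normoxia in log2 normalized intensity.

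Of the 8 genes 3 were called, the cytosolic prdx2 higher (0.70) and the mitochondrial prdx3 and sod2 lower (-0.66 and -0.60). The other mitochondrial gene, prdx5, had a difference of -0.53. The cytosolic prdx1 and sod1, prdx4 of the ER and cat of the peroxisome had differences above 0, except that sod1 was below 0 under median scaling. Over all probe sets tested 431 were called (3.97%), 104 higher (0.958%) and 327 lower (3.01%), and 21.2% had an unadjusted p under 0.05, against 7 of the 8 genes on at least 1 probe set. Lower probe sets made up 75.9% of those called. That share was 90.5% under median scaling, 62.3% under cyclic loess and 58.8% for the deposited values. The 3 samples of each group did not overlap for 7 of the 8 genes, 4 higher and 3 lower. The same was true of 27.2% of all probe sets, 9.94% higher and 17.3% lower. An exact permutation test of 1 gene cannot go below p = 0.1 with 3 samples against 3. Every call therefore uses limma's estimate of spread, which draws on all probe sets.

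**Figure D1:**
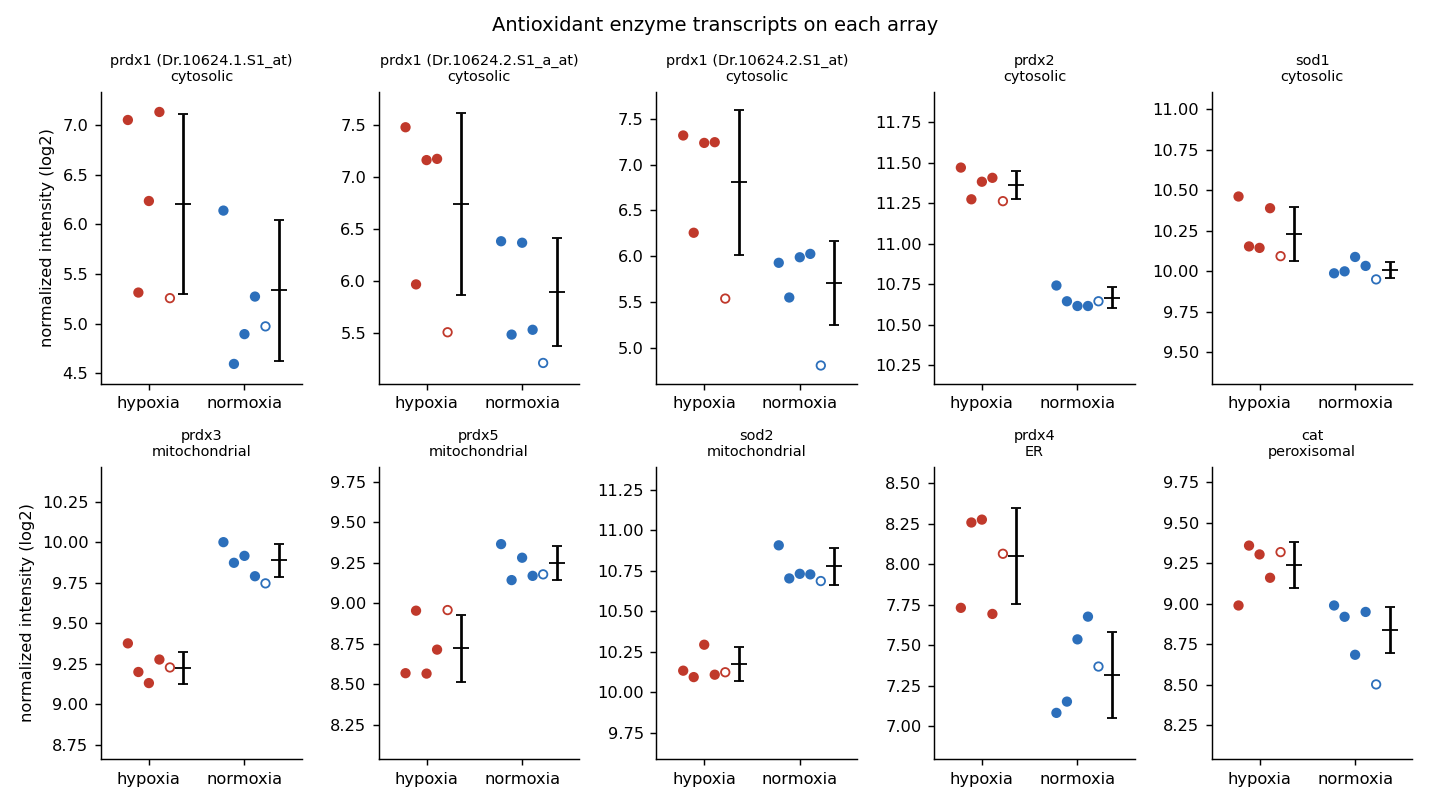
Normalized log2 intensity of the 10 probe sets on each array, hypoxia in red and normoxia in blue, arrays 1 to 5 from left to right, with open circles for the technical repeats (array 5). Black bars are the mean and SD of the 3 counted samples, and each panel has its own vertical range. The mitochondrial genes prdx3, prdx5 and sod2 sit lower on every hypoxia array than on any normoxia array, and prdx2, sod1 and prdx4 sit higher. The margin is narrow for sod1 (10.094 on hypoxia 5, 10.089 on normoxia 3) and prdx4 (7.69 on hypoxia 4, 7.68 on normoxia 4). Repeats are among these arrays, and the share of all probe sets without overlap over single arrays was not counted.

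Among the cytosolic enzymes, prdx2 differed most clearly from its own spread. It had 11.44, 11.27 and 11.38 log2 in hypoxia 1/4, 2 and 3, against 10.74, 10.65 and 10.62 in normoxia 1, 2 and 3/4. All hypoxia samples lay at least 0.53 above all normoxia samples. The means were 11.36 ± 0.09 in hypoxia and 10.67 ± 0.07 in normoxia (SD, n = 3), and prdx2 rose by 0.70 ± 0.07 (SE), a 1.62-fold change (adjusted p = 0.0145 from limma, rank 12 of 10851 by p). The rise was 0.68, 0.78 and 0.62 in the 3 hybridization runs, which do not hold separate samples. The last holds repeats of RNA from the first. Hypoxia 1 and 4, counted as 1 sample, were in runs 1 and 2, and both normoxia arrays of run 2 were counted as 1 sample. Under median scaling the rise was 0.45 and still called. It was not called for the deposited values (0.52, adjusted p = 0.119) or without hypoxia 3 (0.69, adjusted p = 0.0794).

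The copper-zinc superoxide dismutase gene sod1 had 10.43, 10.12 and 10.15 in hypoxia 1/4, 2 and 3, against 9.99, 9.98 and 10.06 in normoxia 1, 2 and 3/4. The groups were separated by 0.06, less than the SD within hypoxia. Its difference was 0.22 ± 0.09 (SE; 95% interval -0.0012 to 0.45) and was not called (adjusted p = 0.238). Its direction depended on the scaling, since it was 0.21 under cyclic loess, -0.060 under median scaling and 0.016 without any normalization.

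Of all members prdx1, the cytosolic partner of prdx2, varied most between samples. Its brightest probe set had 7.33, 5.74 and 7.16 in hypoxia 1/4, 2 and 3, against 6.38, 5.35 and 5.95 in normoxia 1, 2 and 3/4. The groups overlapped, because hypoxia 2 was below normoxia 1 and 3/4. Its mean signal in hypoxia was 79.9% above normoxia on this probe set and 82.5% and 115% above on the others, and none was called (adjusted p = 0.348, 0.396 and 0.197 from limma). The last of these was called in the fit to all 10 arrays with the run as a term (adjusted p = 0.0278), and all 3 were called with the replicate block. Their technical repeats differed by up to 0.74, and the near-identical arrays counted as 1 sample by up to 0.84. On the dimmest of the probe sets normoxia array 2 had 23.2, under the background bound of 27.0 intensity units. The 95% interval ran from -0.25 to 1.94 log2 on the brightest probe set and from -0.37 to 2.11 on the dimmest. On the probe set 115% above normoxia it ran from 0.11 to 2.09, all above 0. As no probe set was called in the reported fit and the intervals were wide, neither a rise nor equal levels could be shown for this gene.

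The mitochondrial enzymes lay the other way, and prdx3 and sod2 had little spread. For prdx3, the peroxiredoxin of the mitochondrial matrix, the values were 9.32, 9.21 and 9.13 in hypoxia 1/4, 2 and 3, against 10.00, 9.81 and 9.85 in normoxia 1, 2 and 3/4. Every hypoxia sample lay at least 0.48 below every normoxia sample. With means of 9.22 ± 0.10 in hypoxia and 9.89 ± 0.10 in normoxia (SD, n = 3), prdx3 fell by 0.66 on the log2 scale (SE 0.09, adjusted p = 0.0223 from limma), which is 1.58-fold lower. The differences by run were -0.65, -0.65 and -0.52. It was not called for the deposited values (-0.84, adjusted p = 0.0644), nor without hypoxia 3 (-0.62, 0.0915), normoxia 1 (-0.61, 0.0615), normoxia 2 (-0.70, 0.0510) or normoxia 3/4 (-0.68, 0.0522), each a fit to fewer samples.

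The manganese superoxide dismutase gene sod2, which handles superoxide at its main site of formation, had 10.12, 10.11 and 10.29 in hypoxia 1/4, 2 and 3. In normoxia 1, 2 and 3/4 it had 10.91, 10.69 and 10.73. Again no hypoxia sample reached a normoxia sample, with a gap of 0.40. The gene fell by 0.60 on the log2 scale (SE 0.08, adjusted p = 0.0267 from limma), 1.52-fold lower, and the differences by run were -0.69, -0.53 and -0.56. The call was lost when any 1 counted sample was left out, at adjusted p = 0.0692, 0.0535 and 0.0794 without hypoxia 1/4, 2 and 3 and 0.0621, 0.0535 and 0.0552 without normoxia 1, 2 and 3/4, while the difference stayed between -0.66 and -0.54. It was also lost with no filter on low values (adjusted p = 0.0564). With no intensity trend in the fit prdx2, prdx3 and sod2 had adjusted p = 0.0742, 0.0742 and 0.0759, and 2 probe sets in all were called.

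For prdx5 the values were 8.64, 8.96 and 8.57 in hypoxia 1/4, 2 and 3, against 9.37, 9.16 and 9.23 in normoxia 1, 2 and 3/4. The groups were separated by 0.20, with hypoxia 2 nearest to normoxia. The difference was -0.53 ± 0.12 (SE; 95% interval -0.82 to -0.24) and was not called (adjusted p = 0.0702). Without hypoxia 2 it was -0.65 and called (adjusted p = 0.0480), and it was called under median scaling (-0.76, adjusted p = 0.0403) and with the 8 samples as labelled (-0.54, adjusted p = 0.00894). It was also called in the fits to all 10 arrays with the counted sample as a random block, without the run as a term (adjusted p = 0.0126) and with it (adjusted p = 0.0321). With the replicate block (adjusted p = 0.0402), these make 6 of 19 alternatives with a test. The gene prdx5 was not called for the deposited values (-0.68, adjusted p = 0.142) or with no filter on low values (adjusted p = 0.127). Leaving out any counted sample other than hypoxia 2 gave adjusted p = 0.125 to 0.198, not called. By run it was -0.49, -0.59 and -0.22.

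**Figure D2:**
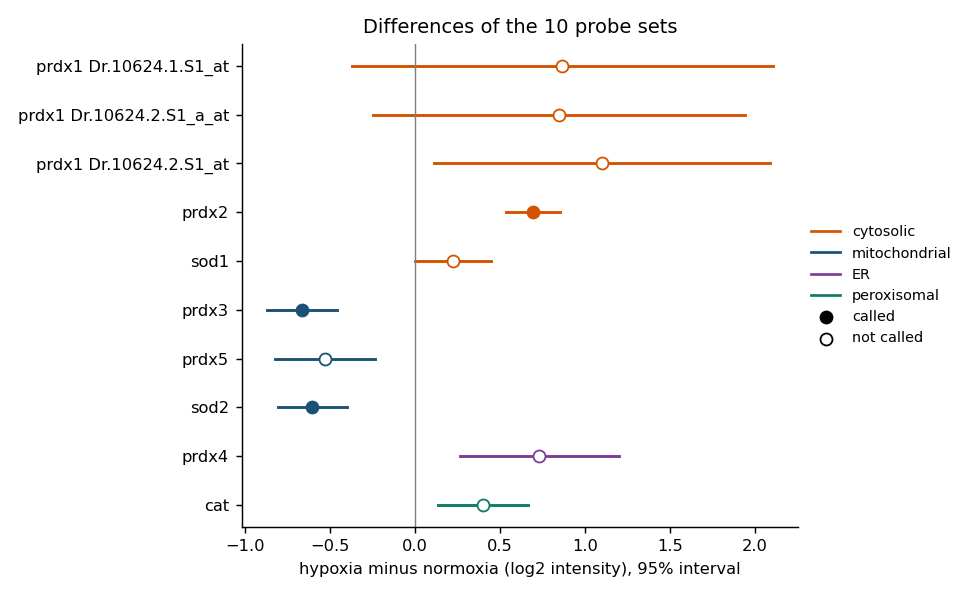
Difference of hypoxia minus normoxia in log2 intensity for the 10 probe sets, with the 95% interval from limma, coloured by compartment. Filled points were called (prdx2 at 0.70, prdx3 at -0.66 and sod2 at -0.60), open points were not. The 3 mitochondrial genes lie left of 0 and the other probe sets right of it, with the widest intervals for prdx1.

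Outside these compartments, prdx4 and cat had higher values in hypoxia that were not called. The ER peroxiredoxin prdx4, which passes oxidizing power from hydrogen peroxide to protein disulfide isomerases, had 7.71, 8.16 and 8.28 in hypoxia 1/4, 2 and 3, against 7.08, 7.26 and 7.61 in normoxia 1, 2 and 3/4. Its groups were separated by 0.11 and the difference was 0.73 ± 0.20 (SE, adjusted p = 0.0981), a 1.66-fold change. In the fit to all 10 arrays with the counted sample as a random block it was called (adjusted p = 0.0277), and with the run as a term it was not (adjusted p = 0.0608). Within run 2 alone it was 0.38, against 0.88 in run 1. The catalase gene cat had 9.07, 9.34 and 9.30 in hypoxia 1/4, 2 and 3, against 8.99, 8.71 and 8.82 in normoxia 1, 2 and 3/4. Its groups were separated by 0.09, and over single arrays hypoxia 1 and normoxia 1 had the same value, 8.99. The difference of cat was 0.40 ± 0.11 (SE, adjusted p = 0.108), with 0.22, 0.42 and 0.82 by run, 0.17 under median scaling and 0.24 without normalization.

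The mitochondrial and cytosolic enzymes were also set against each other within each sample, where a shift of a whole array cancels. The mean of the 3 mitochondrial genes minus the mean of the 3 cytosolic genes was -0.37, 0.38 and -0.23 log2 in hypoxia 1/4, 2 and 3, against 1.05, 1.23 and 1.06 in normoxia 1, 2 and 3/4. The change was -1.19, and it ranged from -1.13 to -1.25 over the scalings, pseudocount and sample counts tried. The mitochondrial mean differed by -0.60 and the cytosolic mean by 0.59, but how the change divides between them depended on the scaling. They were -0.85 and 0.38 under median scaling, -0.78 and 0.46 without normalization and -0.58 and 0.61 under cyclic loess. With prdx1 left out the cytosolic mean differed by 0.46, and by 0.19 under median scaling and 0.27 without normalization. Because levels of different probe sets are not comparable, the size of each value has no meaning of its own and only the change between groups does. These genes were chosen with earlier results known, so no p is given for their mean.

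Pairs of a mitochondrial and a cytosolic enzyme had changes of the same sign and of different size, and the difference in size was not tested. The change of a pair follows from the differences of its genes given above, so the pairs are not separate evidence. Both peroxiredoxin pairs use prdx2. For sod2 minus sod1 the values were -0.30, -0.02 and 0.15 in hypoxia 1/4, 2 and 3, against 0.92, 0.72 and 0.67 in normoxia 1, 2 and 3/4. The mean change was -0.83, a 1.77-fold lower ratio of mitochondrial to cytosolic transcript. For prdx3 minus prdx2 the values were -2.11, -2.06 and -2.25 in hypoxia 1/4, 2 and 3, against -0.74, -0.84 and -0.76 in normoxia 1, 2 and 3/4. This ratio was 2.57-fold lower in hypoxia, and its SD was 0.10 in hypoxia and 0.05 in normoxia (n = 3). For prdx5 minus prdx2 the values were -2.80, -2.31 and -2.82 in hypoxia 1/4, 2 and 3, against -1.38, -1.48 and -1.39 in normoxia 1, 2 and 3/4. The mean change was -1.22, and its SD was 0.29 in hypoxia and 0.06 in normoxia (n = 3).

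**Figure D3:**
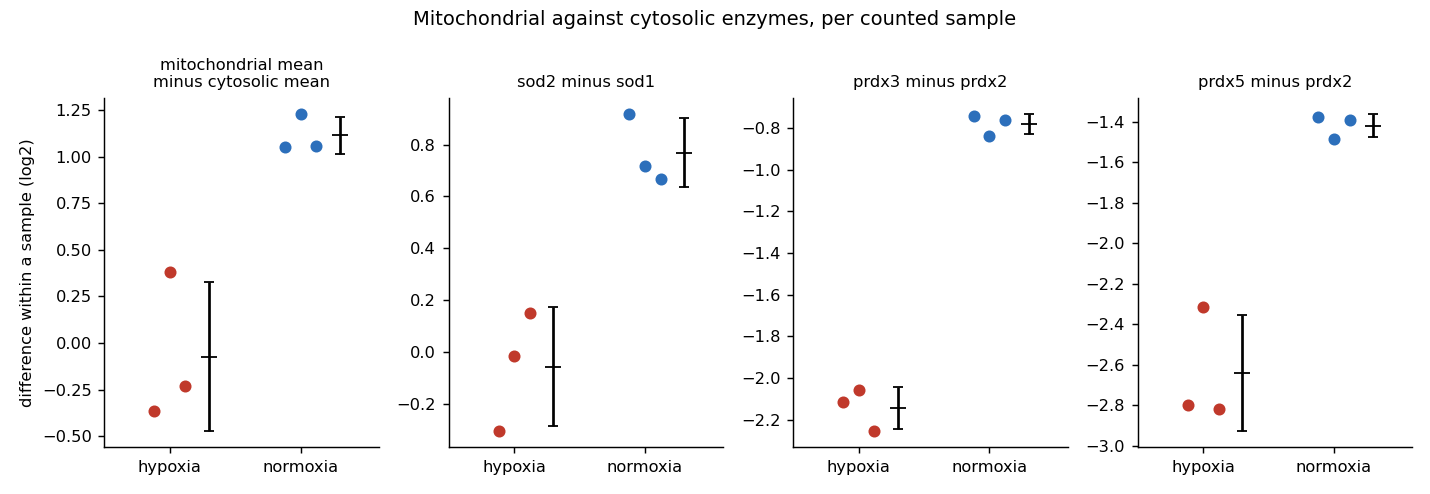
Within each counted sample, the mean of the mitochondrial genes minus the mean of the cytosolic genes, and 3 pairs of a mitochondrial and a cytosolic enzyme, in log2 intensity. Points are the 3 samples per group, hypoxia left and normoxia right, and bars are the mean and SD. In every panel the hypoxia samples lie below the normoxia samples, by -1.19 on average in the first and by -1.36 for prdx3 minus prdx2.

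The 2 pairs of technical repeats give an estimate of the technical error of these values, not an upper limit. For prdx2, prdx3 and sod2 the technical repeats differed by at most 0.13. The near-identical arrays counted as 1 sample also differed by at most 0.13 for these genes, but were picked for being alike. For sod1, prdx5, prdx4 and cat the technical repeats differed by up to 0.42, the value for cat in normoxia, which is as large as its difference between groups. The wash records of both array 5 hybridizations end in an abort, and without those arrays prdx2, prdx3 and sod2 were still called.

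The mitochondrial enzymes stood beside lists made up mainly of genes of the mitochondrion, most of which were also lower. Of 82 oxidative phosphorylation genes 38 were called lower and 0 higher, with a median of -0.34, and 80 lay below 0. Of 59 mitochondrial ribosomal protein genes 12 were called lower and all lay below 0, with a median of -0.39. Of 21 TCA cycle genes 8 were called lower and 19 lay below 0, with a median of -0.35. That list also holds genes of cytosolic enzymes, mdh1aa at -0.37 and mdh1ab at -0.52 (both called) and aco1 at 0.08 (not called). The genes sdha, sdhb, sdhc and sdhdb are counted in the TCA cycle list and in the oxidative phosphorylation list. Of 22 fatty acid oxidation genes 19 were called lower and all lay below 0, with a median of -0.79. Among them is fabp3, the gene of a cytosolic protein, at -0.24 (not called). Over all probe sets tested 3.01% were called lower and 0.958% higher. All 4 medians stayed below 0 under the other scalings. For the deposited values 1 oxidative phosphorylation gene, 0 ribosomal protein genes, 1 TCA cycle gene and 12 fatty acid oxidation genes were called, and under median scaling 70, 33, 16 and 22. The median over all 6808 genes tested was -0.03. The difference of prdx3 was below that of 79 of the 82 oxidative phosphorylation genes and that of sod2 below 78, while both were smaller in size than the fatty acid oxidation median. In bulk RNA, fewer cells or mitochondria of a kind and less RNA in each cannot be told apart.

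Some red blood cell genes were higher in hypoxia, as prdx2 was. In mammals prdx2 is an abundant protein of red cells, and blood is part of a dissected heart. Of 19 red blood cell genes 7 were called higher, against 0.958% of all probe sets tested, and 0 lower. The median of the 19 genes was 0.61, near the 0.70 of prdx2. Their summed intensity was 27116 to 33232 in hypoxia and 21413 to 23356 in normoxia. No gene of the list was at the floor on any array. Among the called members were the embryonic beta globin gene hbbe2 at 1.79 and the nucleotidase gene nt5c2l1 at 1.23. The other 12 were not called, among them the adult globin genes hbaa1 at 0.09 (adjusted p = 0.218) and hbba2 at 0.06 (adjusted p = 0.744). The list also holds the uncoupling protein gene ucp3, not a defining red cell gene, at -0.97. For the deposited values 1 gene of the list was called higher, against 42 of all 10851 probe sets tested. The list median stayed above 0 under all scalings tried.

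Mean log2 intensities of the red blood cell list were 9.53, 9.10 and 9.26 in hypoxia 1/4, 2 and 3. Sample 1/4 was highest and sample 2 lowest for the list, as for prdx2, prdx1 and sod1. That order was not particular to red cell genes. It also held for the oxidative phosphorylation, fatty acid oxidation, mitochondrial ribosomal protein and heart muscle lists, and not for the TCA cycle list. In normoxia the list had 8.91, 8.65 and 8.66 in samples 1, 2 and 3/4. Sample 1 was highest there for the list and for prdx2, and not for sod1. The lowest was sample 2 for the list and sample 3/4 for prdx2. The part of red blood cells in these differences was not tested.

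Of the 19 liver genes 18 differed more than prdx1 and all 19 more than every other member. Their direction was that of prdx1, prdx2, sod1, prdx4 and cat in the reported fit. All 19 liver genes lay above 0 with a median of 2.31, and 3 were called higher, against 0.958% of all probe sets tested. The largest differences were those of the C-reactive protein gene crp at 4.36 and the hemopexin gene hpxa at 4.35. The summed intensity of the list was 22526 to 41168 in hypoxia and 3390 to 16699 in normoxia. None of its genes was at the floor, and up to 6 of the 19 were under the background bound on a normoxia array.

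By sample the mean log2 intensity of the liver list was 9.47, 10.51 and 10.17 in hypoxia 1/4, 2 and 3, and 5.67, 8.19 and 8.65 in normoxia 1, 2 and 3/4. Both prdx4 and cat were lowest in hypoxia 1/4 within hypoxia, as the list was. Within normoxia prdx4 was lowest in sample 1, like the list, and cat was highest there. The part of liver RNA in these differences was not tested.

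The remaining cell type lists had medians nearer to that of all genes. Of 14 heart muscle genes 3 were called lower, against 3.01% of all probe sets tested, and 0 higher, with a median of -0.09. In this list 11 genes lay below 0 and 3 above. Its summed intensity was 49290 to 51344 in hypoxia and 53949 to 56325 in normoxia. The called genes included the titin gene ttn.2 at -0.56 and myh7, a myosin heavy chain gene, at -0.89. Of 7 endothelial, 11 leukocyte and 6 fibroblast and smooth muscle genes none was called, with medians of 0.01, -0.11 and -0.06.

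**Figure D4:**
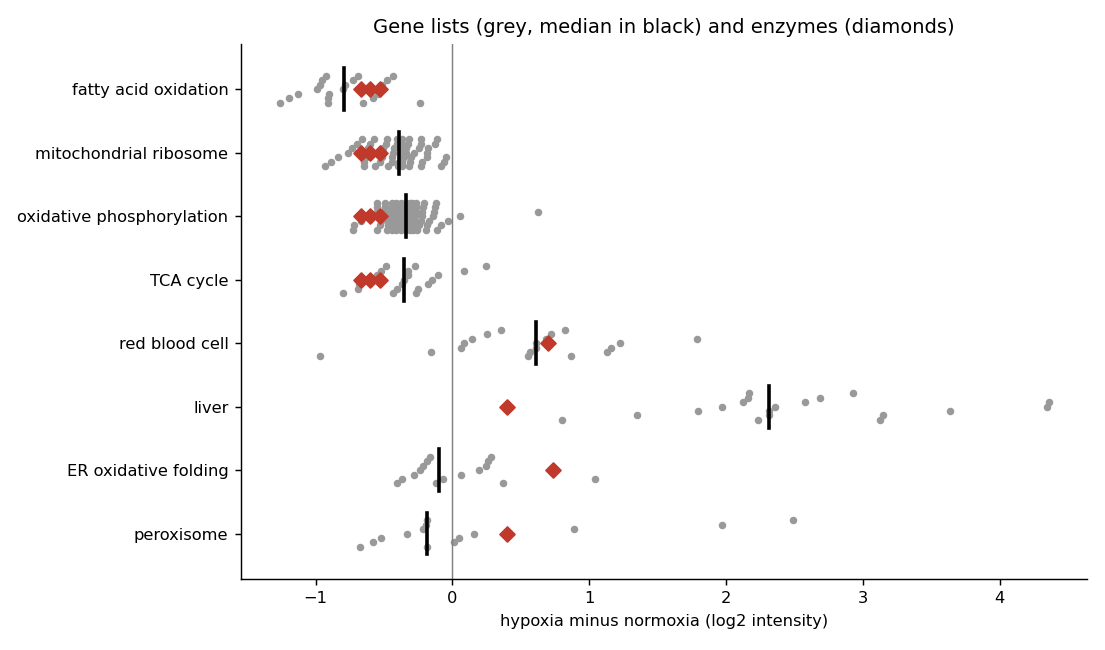
Difference of hypoxia minus normoxia in log2 intensity for each gene of 8 lists (grey points, spread vertically for legibility), the list median (black line) and the enzymes set beside them (red diamonds). Diamonds are prdx3, sod2 and prdx5 in the upper 4 rows, prdx2 beside red blood cell genes, cat beside liver and peroxisome genes and prdx4 beside ER folding genes. The mitochondrial enzymes lie between the oxidative phosphorylation median (-0.34) and the fatty acid oxidation median (-0.79).

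Among the partner systems of the peroxiredoxins, the thioredoxin system restores oxidized peroxiredoxins with electrons from NADPH. Of its 22 listed genes 9 were measured, and 1 was called lower, against 3.01% of all probe sets tested. The called gene was the nicotinamide nucleotide transhydrogenase gene nnt, which makes NADPH in the mitochondrial matrix. It fell by 0.88 on the log2 scale (SE 0.08, adjusted p = 0.0145), at 9.43 in hypoxia against 10.30 in normoxia. Thus nnt had a larger difference than prdx3 or sod2. The methionine sulfoxide reductase gene msrb1a had -0.89 and was not called (adjusted p = 0.159). The thioredoxin inhibitor gene txnipa had 0.36 (adjusted p = 0.315), and the list median was -0.32. No gene of thioredoxin itself was among the 9, so the median does not cover it. The thioredoxin reductase gene txnrd3 had -0.19 (adjusted p = 0.277). Under median scaling 3 of the 9 were called lower, against 714 of all 10851 probe sets tested.

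Of 31 listed genes of the glutathione system, the other route of peroxide removal, 19 were measured and none was called. The largest differences were 0.72 for the glutathione peroxidase gene gpx4a (adjusted p = 0.160) and -0.53 for the malic enzyme gene me1 (adjusted p = 0.277), and the list median was -0.13. Of 20 listed genes of the Nrf2 pathway, which switches on antioxidant genes in response to oxidants, 8 were measured and none was called. The quinone reductase gene nqo1 had 0.45 (adjusted p = 0.550), the transaldolase gene taldo1 had 0.27 (adjusted p = 0.164), and the median was 0.05, or -0.068 under median scaling. Of 17 other listed genes of superoxide and peroxide handling 6 were measured and none was called. The largest differences were -0.97 for the uncoupling protein gene ucp3 (adjusted p = 0.101) and -0.18 for park7 (adjusted p = 0.358).

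Within the compartment of prdx4, 1 of 16 ER oxidative folding genes was called higher, against 0.958% of all probe sets tested. This was the oxidase gene ero1a, whose product makes hydrogen peroxide while it forms disulfide bonds, at 7.15 in hypoxia against 6.11 in normoxia (difference 1.04, SE 0.11, adjusted p = 0.0168). The disulfide isomerase genes pdia6 and pdia3 had -0.40 (adjusted p = 0.566) and 0.37 (adjusted p = 0.101), and the list median was -0.10. In this list 7 genes lay above 0 and 9 below. The difference of prdx4 was above that of 15 of the 16 genes. By sample the list's mean log2 intensity was 7.66, 7.64 and 7.78 in hypoxia 1/4, 2 and 3, against 7.44, 7.42 and 8.14 in normoxia 1, 2 and 3/4. Normoxia 3/4 thus stood above every hypoxia sample, and normoxia 1 and 2 below. Both the list and prdx4 were highest in hypoxia 3 and in normoxia 3/4, but their lowest samples differed. The part of such shared variation in the difference of prdx4 was not tested. Of 33 listed peroxisome genes 14 were measured, none was called and the median was -0.18. The 2 largest differences were those of agxta at 2.49 (adjusted p = 0.374) and hao1 at 1.97 (adjusted p = 0.107), an aminotransferase and an oxidase gene known from liver peroxisomes, and cat lay above 11 of the 14.

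The genes whose levels over the 6 counted samples were most like those of prdx3 and sod2 included several of the mitochondrion. By Pearson correlation of log2 intensity over 6800 other genes, prdx3 was nearest to the complex IV subunit gene cox5ab (r = 0.998), the enoyl-CoA hydratase gene echs1 (0.998), nde1 (0.996), asb16 (0.996) and the spermine oxidase gene smox (0.996). The gene sod2 was nearest to the acyl-CoA dehydrogenase gene acadm (0.996), spag7 (0.996), snx16 (0.991), atf4a (0.991) and the cysteine desulfurase gene nfs1 (0.990). For prdx2 the nearest were hexim1 (0.994), uprt (0.994), the red cell anion exchanger gene slc4a1a (0.989), golga7 (0.986) and cdkn1bb (0.984). With 6 points in separate groups the difference between groups sets most of such a value, and 210, 118 and 67 genes had r above 0.95 with prdx3, sod2 and prdx2.

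Deviations from the group means over the 10 arrays, which leave that difference out, gave other neighbours. These were tasora (0.946), ccl25b (0.929) and ube2d1b (0.908) for prdx3, pmp22a (0.971), irg1l (0.960) and lamc1 (0.939) for sod2, and ms4a17a.11 (0.974), mob1a (0.965) and zgc:110239 (0.960) for prdx2. The arrays are not independent, since 4 pairs of them are repeats or near-identical.

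**Figure D5:**
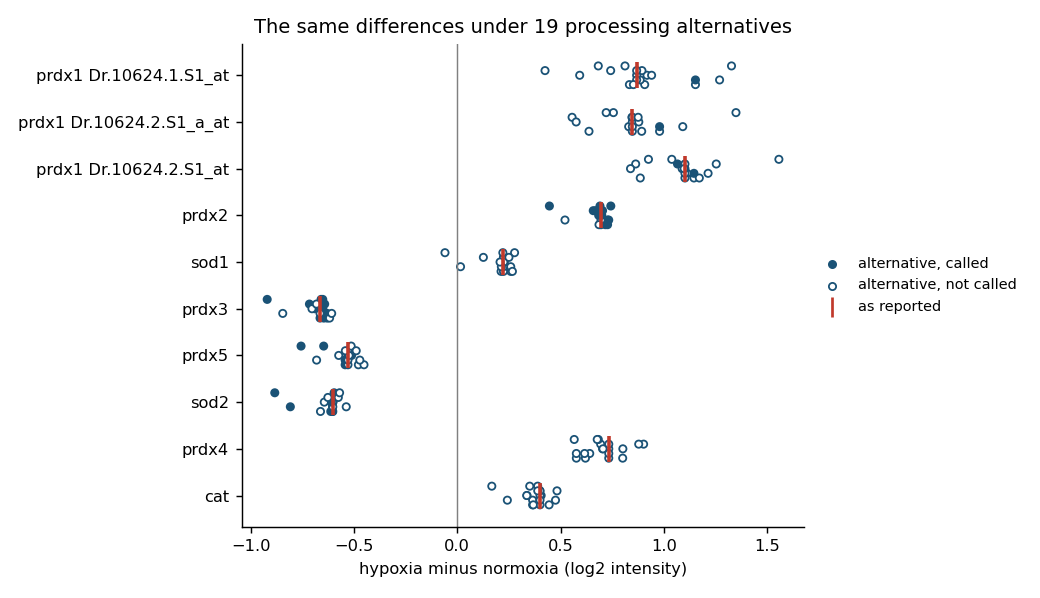
Difference of hypoxia minus normoxia in log2 intensity for each probe set under 19 processing alternatives with a test (circles, filled where called) and as reported (red line). Circles are spread vertically for legibility. The mitochondrial genes stay below 0 in all of them and prdx1, prdx2, prdx4 and cat above 0, while sod1 has values on both sides of 0.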

How the data were processed

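Expression was measured on 10 arrays, 5 from hypoxia and 5 from normoxia. The deposited values are intensities of each probe set on each array, on a linear scale, with 7.86 to 10.1% of values at or below 0 on each array, and how the authors made it is not given in the sources used here. Text records of each array, which hold no expression value, were read for the time of hybridization, which gave 3 runs that each held both groups (arrays 1 and 2, arrays 3 and 4, and array 5).

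Quantile normalization was applied before taking logs, 1 was added, results under 1 were set to 1, and log2 was taken. The 115 control probe sets and the lowest 30% by mean log2 intensity (under 4.02) were left out. Technical repeats were averaged with their sample, as were arrays labelled as separate samples but no less alike than the less alike technical pair. Hypoxia array 5, whose label also carries the number 4, was taken as the repeat of hypoxia 2 that the label names. Over the bright probe sets it differed from hypoxia 2 by an SD of 0.105 log2 and from hypoxia 4 by 0.353. The test was limma 3.58.1 under R 4.3.3 (lmFit, eBayes with an intensity trend, two-sided, Benjamini-Hochberg over 10851 probe sets). Its code was also run on simulated independent normal values with planted changes. That run does not cover the likeness between arrays or the loss of calls described below. The background bound is 2 times the SD estimated from negative values. Figures used Python 3.11.15, pandas 2.3.3 and matplotlib 3.10.9.

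Symbols come from the platform's annotation, updated through gene IDs for 10711 of 10795 probe sets with 1 symbol; 135 have several and 4572 none. A listed gene was represented by its brightest probe set. The members, the gene lists and the tests were chosen with earlier results of these data known. Named genes are the members, the called genes of each partner list (or its 2 largest differences where fewer than 2 were called), up to 2 called genes of each marker list, and the nearest genes by correlation for prdx2, prdx3 and sod2. The genes txnipa, txnrd3, pdia3, hbaa1, hbba2, mdh1aa, mdh1ab, aco1, fabp3, sdha, sdhb, sdhc and sdhdb were added after their values were seen. Alternatives were other scalings, filters, pseudocounts, sample counts, blocks and leaving out each counted sample.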

Additional observations from a re-analysis of the deposited data

How the results depend on the processing

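The count of called probe sets, 431, depended on the fit. It was 1390 with the 8 samples as labelled, 1013 with all 10 arrays and the counted sample as a random block, 870 with the run added to that fit, 789 under median scaling, 102 for the deposited values, 171 with no filter on low values (15502 tested) and 2 with no intensity trend, and 1 to 204 when a counted sample was left out, fewest without hypoxia 3. Members called higher (1 as reported) were 2 in the fits with all 10 arrays (prdx2 with prdx4, or with prdx1 once the run was added), 0 for the deposited values and with no intensity trend, and 0 to 1 on leaving out a sample. Members called lower (2 as reported) were 3, with prdx5, for the 8 samples as labelled, under median scaling and in both fits with 10 arrays, 1 for the deposited values and with no filter, 0 with no intensity trend and 0 to 2 on leaving out a sample. With the 8 samples as labelled and the replicate block, 1062 probe sets were called, with 2 members higher (prdx1 and prdx2) and 3 lower. Same-numbered samples correlated at 0.18, 0.10, 0.08 and -0.10 in their deviations from the group means. The best match of hypoxia 1 and of hypoxia 2 was the normoxia sample of the same number, and for hypoxia 3 and 4 it was not. These correlations cannot show whether the samples were paired, and the reported fit uses no pairing. The difference between mitochondrial and cytosolic means was -0.79 within run 3, which holds 1 array per group, and -1.41 to -1.04 on leaving out a sample. The sign of sod1 turned under median scaling (-0.060); the other 9 probe sets kept theirs in all 22 alternatives. The fit without array 5 of each group was added after the data were seen. The cause of these changes was not tested, beyond fewer samples in the fits that leave one out. On 1 normoxia array 1 probe set of prdx1 was under the background bound.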
